A study of Mus musculus with 12 samples.

Results

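The transcripts described here came from mouse hippocampus, were assembled from the reads, are classed as intergenic and carry no name. They are the rows that the deposited tables class as unannotated lincRNA, that is, long intergenic non-coding RNA found by transcript assembly, with a dash in place of a gene name. All rows of that class were taken: 1053 of 16687 loci in the siGSK3b table, 1242 of 17394 in the L803mts table and 1200 of 17864 in the ketamine table. The interval of 175, 272 and 211 of them (16.6%, 21.9% and 17.6%) nevertheless overlaps that of a named locus. The class is the authors' own and was not set by any difference between treatments.

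There were 12 RNA-seq libraries from C57BL/6 mice, 3 in each of 4 groups. Control mice received 5 µL of vehicle per nostril on alternate days over 3 days. On the same schedule the siGSK3b group received 10 µg of an siRNA against GSK3b, a serine/threonine kinase, and the L803mts group received 60 µg of L803mts, a peptide inhibitor of GSK3 whose name the treatment protocol spells L808mts. The ketamine group received the NMDA receptor antagonist intraperitoneally at 10 mg/kg, and tissue was taken at 24 h. Ketamine was compared with intranasal vehicle, so drug and route cannot be told apart. RNA was extracted with TRIzol and made into directional, poly(A)-selected libraries. The labels state neither age nor sex, nor whether each library stands for its own mouse. The p-values therefore measure only the spread between libraries, which may be technical. The 3 tables share the same 3 control libraries, and a difference seen in more than 1 table is not independent.

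Long intergenic non-coding RNAs are transcribed between protein-coding genes, often from promoters or enhancers of their own, and many are restricted to the brain. When reads cover a long unspliced or weakly covered transcript unevenly, an assembler cuts it into separate short pieces, and the far end of a known gene's untranslated region or unannotated upstream exons can also come out as intergenic loci. A row is therefore a piece of transcribed sequence and need not be a gene. Values are FPKM, fragments scaled to the length of the assembled transcript and to library size. Differences are treated minus control on the log2(FPKM + 1) scale, which understates changes of low loci, and were tested with limma over all loci of a table, adjusted by Benjamini-Hochberg. In bulk tissue, fewer cells of a type and less RNA per cell cannot be told apart.

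Some of the assembled loci surround known microRNA genes, whose mature sequences are shown because they are known products encoded within the regions described below. Region 7, on chromosome 6, holds Mir29a, and region 6, on chromosome 7, holds the Mir344 cluster. All 5 microRNA genes named there matched RefSeq (GRCm38.p6). Sequences run 5′ to 3′ and the seed, bases 2 to 8, is in capitals. miR-29a, a microRNA abundant in mature neurons and known for repressing collagen mRNAs, comes from region 7.
mmu-miR-29a-3p: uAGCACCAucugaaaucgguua
mmu-miR-29a-5p: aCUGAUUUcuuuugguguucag
The miR-344 family of region 6 falls into seed groups. The 3p arms of miR-344 and miR-344c have the same seed and that of miR-344b another, whereas the 5p arms of all 3 share one seed.
mmu-miR-344-3p: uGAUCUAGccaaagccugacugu
mmu-miR-344c-3p: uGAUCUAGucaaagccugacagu
mmu-miR-344b-3p: cAUUUAGCcaaagccugacugu
mmu-miR-344-5p: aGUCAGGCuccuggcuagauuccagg
mmu-miR-344b-5p: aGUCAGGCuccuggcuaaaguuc
mmu-miR-344c-5p: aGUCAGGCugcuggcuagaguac
These libraries do not measure mature microRNAs. The assembled locus that carries the name Mir29a was at 2.78, 4.50 and 3.75 FPKM in control and 4.83, 5.25 and 4.79 in siGSK3b libraries, and the groups did not overlap. In L803mts libraries and their controls it was at 2.90, 4.60 and 3.83 in control and 5.50, 4.67 and 6.78 in L803mts libraries, again without overlap. In the ketamine table the groups overlapped, at 2.67, 4.34 and 3.73 in control and 4.23, 4.68 and 4.53 in ketamine libraries. None of these differences passed limma (0.37 ± 0.17 SE, adjusted p = 0.869; 0.48 ± 0.20, adjusted p = 0.757; 0.27 ± 0.17, adjusted p = 0.867).

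The assembled locus named Gsk3b, on chromosome 16 from 38243242 to 38247469, did not mark the siGSK3b group by a lower level. These libraries were at 18.4 to 19.3 FPKM and control at 17.3 to 18.0 (limma, 0.09 ± 0.09 SE, adjusted p = 0.938). The level within these limits goes against the label, but whether the limits hold the whole mRNA was not tested. This row therefore cannot show whether the siRNA lowered Gsk3b RNA. Of the 13 markers listed for hippocampal neurons 11 were measured in each table, and no measured one was at 0. The summed level of 20 choroid plexus markers differed between control libraries, at 4784 FPKM in replicate 1, 365 in replicate 2 and 127 in replicate 3 of the siGSK3b table, against 4298 to 6270 in siGSK3b libraries. In the L803mts table the sum was 3318, 282 and 108 in control replicates 1, 2 and 3 and 2005 to 3337 in L803mts libraries. In the ketamine table it was 3767, 343 and 153 in control and 510 to 3365 in ketamine libraries. Aqp1 was listed at 0 in all 3 control libraries of the siGSK3b and L803mts tables. It was at 328, 0 and 0 FPKM in siGSK3b libraries and 0.674, 0.564 and 2.04 in L803mts libraries. Library medians over tested loci ran from 8.95 to 10.6 FPKM. FPKM does not preserve counts, so sequencing depth is unknown.

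The unannotated intergenic loci were expressed at levels between those of annotated lincRNAs and protein-coding genes. The median over loci of the mean FPKM was 7.16, 6.89 and 5.38 in the siGSK3b, L803mts and ketamine tables. Annotated lincRNAs had medians of 4.04, 3.69 and 3.62, unannotated intronic loci 5.99, 6.24 and 5.33, and protein-coding loci 11.9, 11.5 and 11. The spread was wide: the 10th percentile was 1.24, 1.15 and 1.00 FPKM, while 23, 33 and 36 rows lay over 100. A value of 0 in at least 1 library was listed for 19, 28 and 36 rows.

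**Figure D1:**
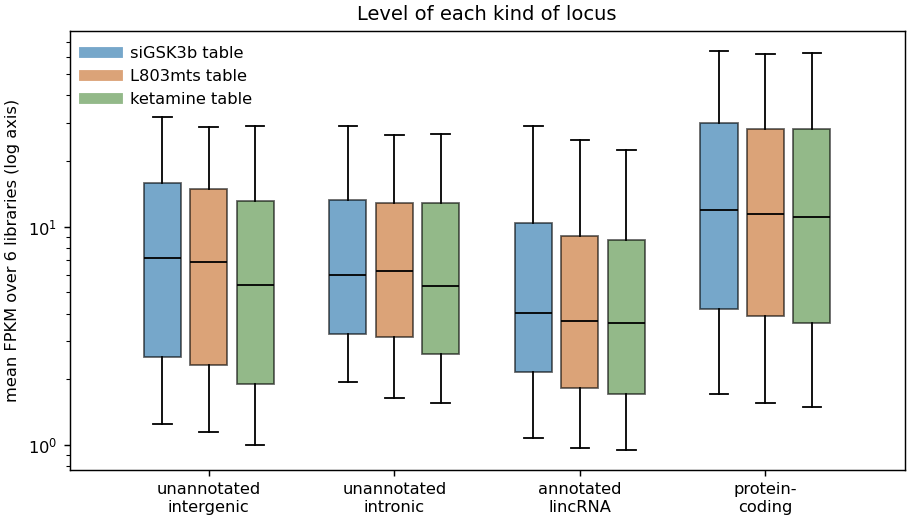
Mean FPKM over the 6 libraries of a table (log axis) for 4 kinds of locus, with boxes from the 25th to the 75th percentile, a line at the median and whiskers from the 10th to the 90th percentile over loci. In each table the unannotated intergenic loci have a median above annotated lincRNAs (7.16 against 4.04 FPKM in the siGSK3b table) and below protein-coding loci (11.9 FPKM).

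A handful of rows stood far above the rest. The highest in the siGSK3b table, chromosome 12 from 50797442 to 50967287, was at 17133, 18527 and 16857 FPKM in control and 19333, 20353 and 22893 in siGSK3b libraries. In the L803mts table the highest row, chromosome 9 from 26260185 to 26288026, was at 1867890, 1808200 and 1548130 FPKM in control and 752884, 3677370 and 1306280 in L803mts libraries. The same place reached 4186220, 2934900 and 4087580 FPKM in ketamine libraries against 1883570, 1593440 and 1802240 in control of the ketamine table. Those ketamine libraries lay above all controls, yet limma gave a difference of 1.07 ± 2.60 SE (adjusted p = 0.969). FPKM divides by transcript length, so a very short assembled transcript can reach such values from few fragments. A row of the ketamine table on chromosome 10 that spans 53 bases, from 77619252 to 77619304, was at 15745, 20200 and 28150 FPKM in control and 31607, 34329 and 53748 in ketamine libraries (limma, 0.90 ± 0.34 SE, adjusted p = 0.791).

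The loci were unevenly placed in the genome. Chromosome 16 held 24.9%, 24.8% and 23.9% of them in the siGSK3b, L803mts and ketamine tables, against 4.82%, 4.94% and 4.60% of all loci. Chromosome 10 held 174, 233 and 158 rows and chromosome 7 held 100, 127 and 129. Many rows were pieces that shared an interval: 406, 534 and 436 rows had the same start and end as another unannotated intergenic row, and up to 94, 110 and 73 rows lay in a single interval. The 1053, 1242 and 1200 rows thus came from 696, 773 and 825 distinct intervals. Of these intervals 90, 120 and 131 lay on chromosome 16, where the rows numbered 262, 308 and 287. Where rows share an interval, the tables give the limits of the whole block and not where in it a row lies. Coordinates are those of mouse build NCBIM37.

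**Figure D2:**
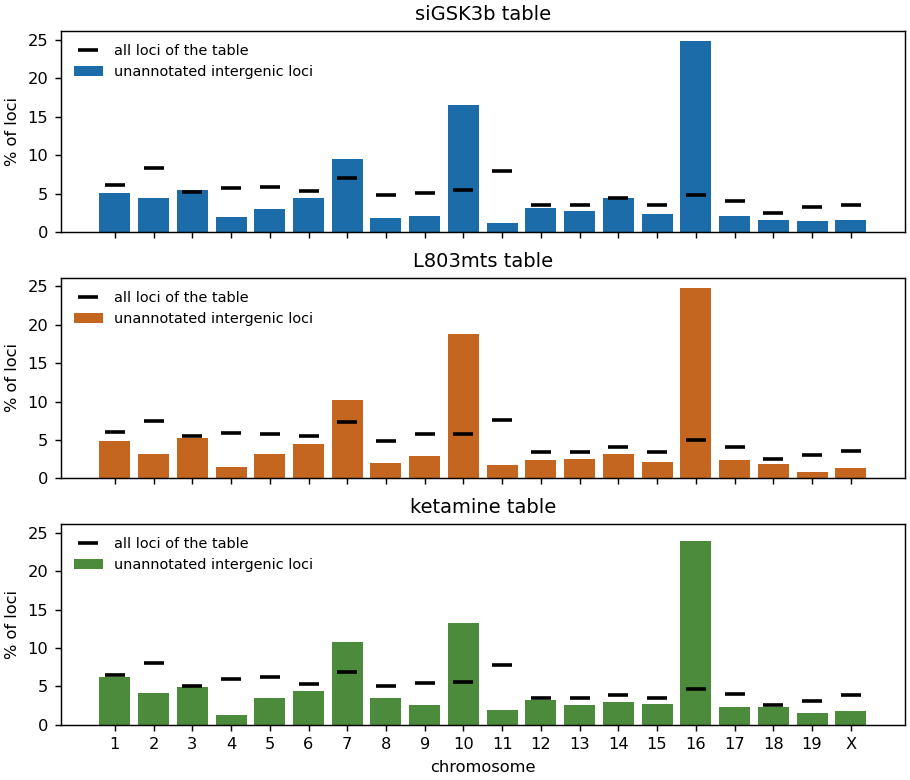
Share of loci on each chromosome (percent) for the unannotated intergenic loci (bars) and for all loci (black dashes) of the 3 tables. Counted by row, chromosome 16 holds 24.9%, 24.8% and 23.9% of the unannotated intergenic loci, and chromosomes 10 and 7 follow.

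Counted by row, the unannotated loci lay farther from named genes than annotated lincRNAs did. Rows that share an interval have the same distance and each count, and shares per distinct interval were not computed. Within 5000 bases of a named locus were 33.0%, 38.8% and 36.2% of them, against 54.9%, 51.9% and 54.4% of annotated lincRNAs. More than 100000 bases away lay 31.7%, 36.2% and 39.4%, against 7.58%, 7.07% and 8.18% of annotated lincRNAs. The shares move with the cut-off, and at 1000 bases they were 26.4%, 30.9% and 27.9%. A locus 1048 bases from Zbtb20, a transcription factor of hippocampal pyramidal neurons, on chromosome 16 from 43644823 to 43646402, was at 0.298, 0.757 and 0.774 FPKM in control and 0.602, 0.699 and 1.08 in L803mts libraries.

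Rows less than 100000 bases apart were joined into regions, a step chosen after the positions were seen. In 8 regions each table had at least 10 rows, and together these held 43.5%, 43.3% and 36.6% of the tested unannotated intergenic loci. Region 1 (chromosome 16, 74425080 to 75447857) held 99, 136 and 98 rows beyond Robo2, an axon guidance receptor. Region 2 (chromosome 16, 40425069 to 41364455) held 78, 77 and 81 rows between Igsf11 and Lsamp, which encode cell adhesion proteins. Region 3 (chromosome 10, 31408838 to 32782146) held 103, 103 and 52 rows around Nkain2. Region 4 (chromosome 10, 8640756 to 9396798) held 52, 53 and 60 rows between Sash1 and Stxbp5, which encodes tomosyn, a regulator of vesicle fusion. Region 5 (chromosome 16, 5306979 to 6245678) held 49, 57 and 54 rows between Fam86 and Rbfox1, a neuronal splicing factor. Region 6 (chromosome 7, 68321952 to 69354529) held 25, 58 and 37 rows with the Mir344 genes, before Ndn. Region 7 (chromosome 6, 30909099 to 31168276) held 25, 23 and 29 rows with Mir29a and the non-coding genes AB041803 and Gm13833, beyond Copg2. Region 8 (chromosome 7, 67447488 to 68217845) held 17, 14 and 16 rows beyond Snrpn. Snrpn and Ndn are paternally expressed genes of the imprinted domain linked to Prader-Willi syndrome.

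Levels differed by region. Median FPKM over the rows was 15.7, 14.0 and 14.4 in region 1, 15.4, 15.6 and 15.6 in region 3 and 10.3, 10.3 and 10.5 in region 2 in the siGSK3b, L803mts and ketamine tables. Region 7 was at 9.54, 11.7 and 8.72, above region 2 in the L803mts table. Region 4 was at 3.60, 3.06 and 2.95 and region 5 lowest at 2.80, 2.5 and 2.42. Rows of a region share their surroundings and perhaps a transcript, and are not replicates of each other.

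Locus limits were redrawn in each table, and rows were joined by overlap of at least 1 base. This gave 1031 groups of overlapping loci, of which 420 had rows in all 3 tables and 438 in a single table. Of the rows, 80.8%, 75.7% and 71.0% belonged to groups found in all tables. With an overlap of at least 50% of each interval, 346 groups were found in all 3. Where the limits were identical, a control library had nearly the same value in different tables: 90% of its values differed by at most 0.02 to 0.08 on the log2 scale, over 83 to 104 loci. Where the limits differed, that bound was 0.65 to 0.70, and 5.27% to 6.23% of values differed by more than 2-fold although the library was the same.

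No unannotated intergenic locus passed limma at an adjusted p of at most 0.05 in any table, where 1, 0 and 2 of all tested loci (0.00612%, 0% and 0.0114%) passed. The smallest adjusted p among them was 0.162 (siGSK3b), 0.742 (L803mts) and 0.116 (ketamine). The authors' deposited table called 5 of 1027 tested members for siGSK3b, 1 of 1204 for L803mts and 10 of 1168 for ketamine at an FDR of at most 0.05. These are 0.487%, 0.0831% and 0.856% of the members, against 0.508%, 0.65% and 0.439% of all tested loci in the authors' deposited table. By direction, the authors' deposited table called 1 member higher and 4 lower for siGSK3b (0.281% and 0.226% of all loci), 1 and 0 for L803mts (0.574% and 0.0761%) and 9 and 1 for ketamine (0.308% and 0.131%). At an unadjusted limma p under 0.05, 70 members were higher and 19 lower in siGSK3b libraries, or 6.82% and 1.85%, beside 2.99% and 2.84% of all loci. In L803mts libraries 18 were higher and 47 lower, or 1.5% and 3.90%, beside 3.61% and 2.57%. In ketamine libraries 59 were higher and 26 lower, or 5.05% and 2.23%, beside 2.98% and 3.16%.

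The groups did not overlap at 106 members higher and 22 lower in siGSK3b libraries, which is 10.3% and 2.14% of members beside 5.72% and 4.84% of all loci. With L803mts the counts were 36 higher and 87 lower without overlap, 2.99% and 7.23% beside 5.86% and 6.67%. With ketamine they were 86 higher and 48 lower, 7.36% and 4.11% beside 5.28% and 6.19%. The median difference over members was 0.05, -0.09 and 0.04 for siGSK3b, L803mts and ketamine, and 0.01, -0.02 and -0.01 over all tested loci. Differences lay above 0 at 61.6%, 29.9% and 57.6% of members, against 51.9%, 45.9% and 46.9% of all loci. Leaving out single libraries moved the median to between 0.01 (without control replicate 3) and 0.10 (without control replicate 2) for siGSK3b and to between -0.15 (without L803mts replicate 2) and -0.02 (without L803mts replicate 1) for L803mts. For ketamine it was 0.01 without control replicate 1 or 3 or ketamine replicate 2 or 3, and 0.08 without control replicate 2 or ketamine replicate 1. The medians over members were no larger than the spread of that median between libraries of a group (SD 0.07, 0.10 and 0.08). That SD is of single libraries, which vary more than the group means behind the differences, so it is not a test.

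The control libraries differed at these loci. Control replicate 2 was the highest control at 53.8%, 53.9% and 50.6% of members, compared with 28.0%, 28.5% and 27.0% of protein-coding loci. Unannotated intronic loci showed the same order more often, at 62.1%, 61.2% and 58.4%. The mean log2(FPKM + 1) over members was 3.03, 3.14 and 2.99 in control replicates 1, 2 and 3 of the siGSK3b table and 3.09, 3.06 and 3.14 in siGSK3b libraries. The groups of a comparison were therefore also set side by side without that library, a check added after the data were seen. At an unadjusted limma p under 0.05, 86 members were then higher and 13 lower with siGSK3b, 8.37% and 1.27% beside 2.71% and 2.28% of all loci. With ketamine 83 were higher and 13 lower, 7.11% and 1.11% beside 3.35% and 3.04%. With L803mts the counts became 22 higher and 20 lower, 1.83% and 1.66% beside 2.56% and 1.36% of all loci, so the larger number of lower members seen with all libraries was lost, and the lower share of all loci was also smaller than the 2.57% found with all libraries. Without control replicate 3, which was the lowest, 57 were higher and 29 lower with siGSK3b, 5.55% and 2.82% beside 2.72% and 2.56%. The same step gave 21 and 68 with L803mts, 1.74% and 5.65% beside 3.34% and 3.05%, and 49 and 40 with ketamine, 4.2% and 3.42% beside 2.75% and 2.7%. Without control replicate 1 the counts were 46 and 23 with siGSK3b, 4.48% and 2.24% beside 3.86% and 3.66%. They were then 21 and 36 with L803mts, 1.74% and 2.99% beside 3.74% and 2.16%, and 63 and 19 with ketamine, 5.39% and 1.63% beside 3.85% and 4.41%.

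Region 7, around Mir29a, had the highest median differences of the 8 regions in the siGSK3b and L803mts tables. The mean log2(FPKM + 1) over its rows was 3.37, 3.48 and 3.57 in control and 3.80, 3.88 and 3.82 in siGSK3b libraries, all above the controls. Its 25 rows all share a single interval, and 24 had a difference above 0, with a median difference of 0.33. Higher without overlap were 18, and 13 were higher at an unadjusted limma p under 0.05, beside 5.72% and 2.99% of all loci. In the L803mts table the means were 3.44, 3.56 and 3.62 in control and 3.76, 3.70 and 4.22 in L803mts libraries. All 23 rows, again of a single interval, had a difference above 0. The median there was 0.32, and 0.18 without L803mts replicate 3, the highest library. In the ketamine table the libraries overlapped, at 3.32, 3.46 and 3.51 in control and 3.37, 3.48 and 3.55 in ketamine, with a median of 0.02. Row XLOC_094654 of this region was at 37.2, 32.7 and 31.5 FPKM in control and 62.7, 57.5 and 69.0 in siGSK3b libraries. Its difference of 0.88 ± 0.10 SE did not pass limma (adjusted p = 0.162) and did without control replicate 1 (0.95, adjusted p = 0.0294). A row of the region in the L803mts table was at 106, 101 and 108 FPKM in control and 169, 145 and 227 in L803mts libraries (limma, 0.74 ± 0.16 SE, adjusted p = 0.757). The named rows inside the region, of AB041803 and Gm13833 among others, had median differences of 0.21 in the siGSK3b table and 0.15 in the L803mts table. Higher without overlap were 5 of 21 and 1 of 14, beside 5.72% and 5.86% of all loci. In the ketamine table the median of the named rows was -0.17. There 0 of 18 were higher and 4 lower without overlap, beside 5.28% and 6.19% of all loci. Whether the regions differ in response between treatments was not tested.

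Region 1, beyond Robo2, was higher in siGSK3b libraries at nearly all of its rows. Mean log2(FPKM + 1) was 3.73, 4.04 and 3.91 in control and 4.15, 4.06 and 4.21 in siGSK3b libraries, with siGSK3b replicate 2 just above control replicate 2. In the siGSK3b table the 99 rows came from 4 distinct intervals. Of 98 tested rows 96 had a difference above 0 and 36 were higher without overlap, as were 5.72% of all loci. The median was 0.23, from 0.16 without control replicate 1 to 0.31 without control replicate 2. No row passed limma, the smallest adjusted p being 0.735. In the L803mts table the library means were 3.54, 4.09 and 3.90 against 3.78, 4.06 and 3.94 in control, and ketamine libraries were at 3.77, 4.09 and 4.18 against 3.80, 4.10 and 3.94. Both groups overlapped their controls, and L803mts replicate 1 and ketamine replicate 1 were the lowest of their tables.

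Region 5, before Rbfox1, was lower in ketamine libraries. Mean log2(FPKM + 1) was 1.99, 2.11 and 1.87 in control and 1.85, 1.76 and 1.6 in ketamine libraries, all below the lowest control. Of 54 rows, each with its own interval, 50 lay below 0, with a median of -0.25 and a smallest limma adjusted p of 0.737. Lower without overlap were 14, and 10 were lower at an unadjusted limma p under 0.05, beside 6.19% and 3.16% of all loci. A row from 5791306 to 5791639 was at 7.13, 6.83 and 5.76 FPKM in control and 5.34, 3.59 and 1.35 in ketamine libraries (limma, -0.89 ± 0.34 SE, adjusted p = 0.791). The other tables had medians of -0.06 (siGSK3b) and -0.14 (L803mts) in this region, and their groups overlapped.

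Region 8, beyond Snrpn, had a median difference of -0.35 in the L803mts table, where 13 of 14 rows lay below 0. Its library means were 2.74, 2.76 and 2.48 in control and 2.51, 2.56 and 2.0 in L803mts libraries, so the groups overlapped, and without L803mts replicate 3 the median was -0.20. Region 6 had medians of 0.05, -0.17 and -0.01 in the siGSK3b, L803mts and ketamine tables. The locus named Mir344-2 in region 6 was at 18.6, 21.2 and 15.8 FPKM in control and 19.9, 17.0 and 20.8 in siGSK3b libraries, with overlap. Regions 2, 3 and 4 had medians between -0.14 and 0.10, and the means of their libraries overlapped in every table.

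**Figure D3:**
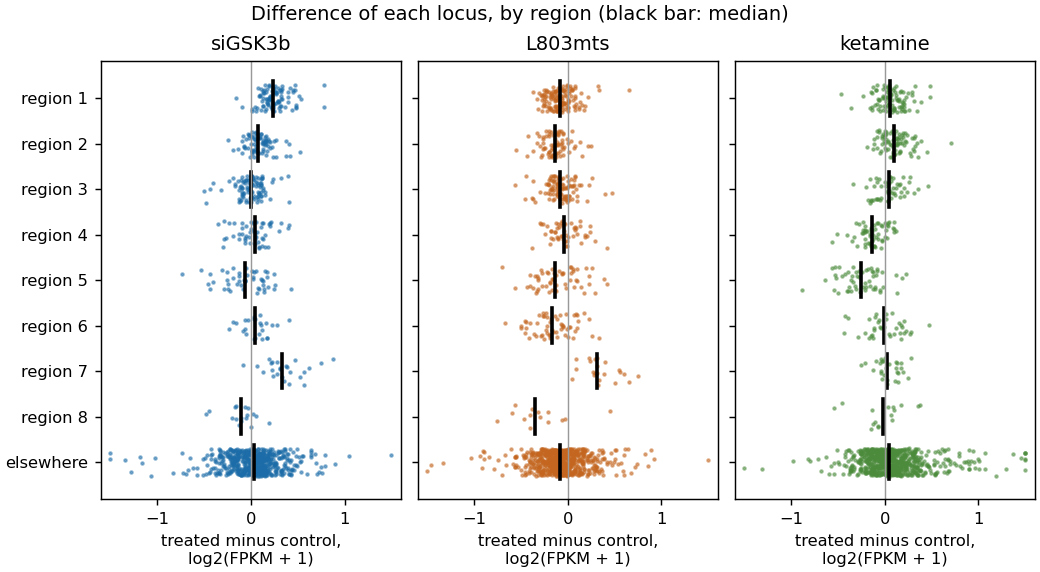
Treated minus control difference on log2(FPKM + 1) of each tested unannotated intergenic locus (points) in the 8 regions and elsewhere, with the median as a black bar. Points beyond 1.5 (3, 2 and 6 loci, all elsewhere) are drawn at the limit. Region 7 lies to the right in the siGSK3b and L803mts tables (medians 0.33 and 0.32) and region 5 to the left in the ketamine table (-0.25).

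**Figure D4:**
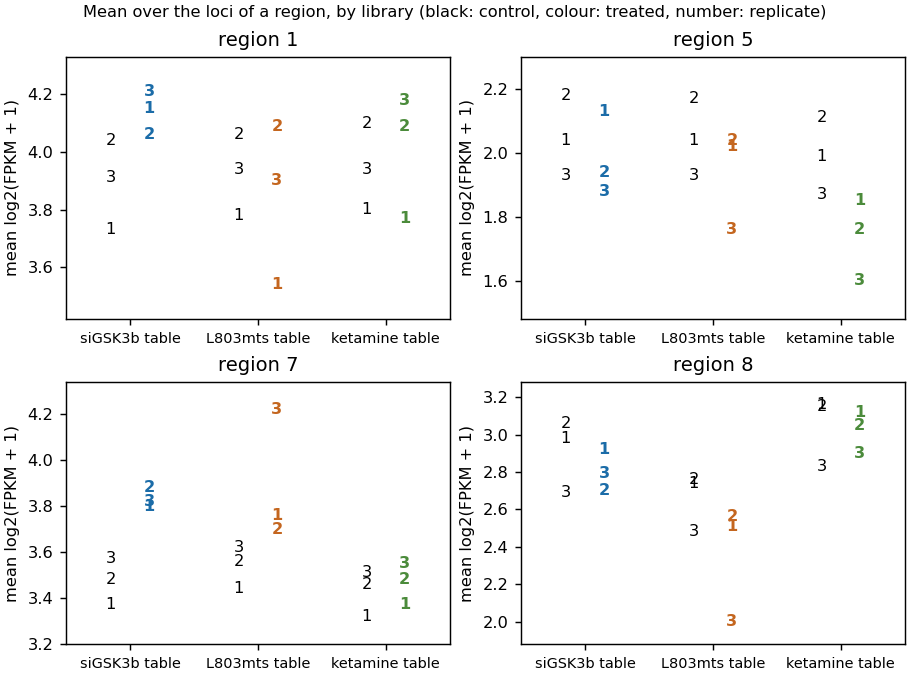
Mean log2(FPKM + 1) over the rows of regions 1, 5, 7 and 8 in each library, with control replicates in black and treated replicates in colour, by replicate number. The axes do not start at 0. In region 7 the siGSK3b and L803mts libraries lie above all controls, and in region 5 the ketamine libraries lie below them.

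Outside the 8 regions, the non-overlapping loci of the ketamine table were mostly higher. There 71 of 741 loci were higher and 21 lower (9.58% and 2.83%), against 15 and 27 of 427 inside the regions (3.51% and 6.32%). Over all loci of the ketamine table the shares were 5.28% and 6.19%. For siGSK3b, 37 of 580 were higher and 17 lower outside (6.38% and 2.93%), against 69 and 5 of 447 inside (15.4% and 1.12%), beside 5.72% and 4.84% of all loci. For L803mts, 19 of 683 were higher and 56 lower outside (2.78% and 8.2%), against 17 and 31 of 521 inside (3.26% and 5.95%), beside 5.86% and 6.67% of all loci.

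The authors' deposited table called 9 loci higher and 1 lower with ketamine. At all 9 the ketamine libraries lay above every control, and at 8 of the 9 control replicate 2 was the highest control. Over all loci that the authors' deposited table called higher with ketamine, 39 of 54 did not overlap and 34 of 54 had control replicate 2 as the highest control. On chromosome X, from 45340948 to 45525544, a locus that overlaps the interval of Apln, the gene of the peptide apelin, was at 63.4, 64.9 and 63.4 FPKM in control and 102, 94.6 and 101 in ketamine libraries. These groups were tight and well separated, and the difference of 0.63 ± 0.07 SE stayed between 0.61 and 0.66 when any library was left out. It passed in the authors' deposited table (FDR 0.0157) and not in limma (adjusted p = 0.116). The same place was at 57.7, 57.2 and 82.4 FPKM in siGSK3b and 59.2, 79.6 and 53.5 in L803mts libraries, where controls were at 63.3 to 66.4, so both of those groups overlapped control. Apln itself was at 12.4, 8.73 and 9.06 FPKM in control and 10.6, 8.67 and 8.96 in ketamine libraries.

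Other ketamine calls had controls that differed among themselves. A locus 45876 bases from Stxbp5, on chromosome 10 from 9666417 to 9840547, was at 30.8, 63.6 and 26.1 FPKM in control and 73.9, 92.8 and 92.1 in ketamine libraries. The difference was 1.18 ± 0.30 SE (limma, adjusted p = 0.636). Without control replicate 2 it was 1.56 and passed limma (adjusted p = 0.0382). Stxbp5 was at 22.8 to 26.9 FPKM in ketamine libraries and 23.3 to 25.1 in control. A locus on chromosome 13 from 61758374 to 61961228 was at 10.0, 15.6 and 8.75 FPKM in control and 26.0, 23.1 and 24.6 in ketamine libraries (limma, 1.07 ± 0.19 SE, adjusted p = 0.488, and 0.0382 without control replicate 2). A second locus on chromosome 13, from 62300969 to 62301828, was at 14.2, 21.0 and 15.5 FPKM in control and 29.7, 25.2 and 28.0 in ketamine libraries (limma, 0.69 ± 0.15 SE, adjusted p = 0.523). At each of these places control replicate 2 lay between the other controls and the ketamine libraries.

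On chromosome 17, from 6827018 to 6827449, the control values were 4.67, 16.1 and 6.87 FPKM and the ketamine values 22.7, 24.2 and 21.0. The locus lies 114695 bases from Ezr, and its difference of 1.37 ± 0.36 SE did not pass limma (adjusted p = 0.652, and 0.0382 without control replicate 2). The corresponding locus of the L803mts table was at 7.04, 13.5 and 5.10 FPKM in L803mts libraries against 3.53, 12.4 and 5.13 in control, with overlap. On chromosome X, from 60701197 to 60782222, a locus was at 289, 431 and 198 FPKM in control and 530, 661 and 571 in ketamine libraries (limma, 1.00 ± 0.25 SE, adjusted p = 0.636). The nearest named locus, of the predicted genes Gm14680 and Gm6754 and 270665 bases away, had the same order of libraries at 446, 669 and 294 FPKM in control and 840, 981 and 849 in ketamine. That named locus was also called in the authors' deposited table (FDR 0.0157) and not by limma (1.00 ± 0.26 SE, adjusted p = 0.667).

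The remaining ketamine calls lay on chromosomes 1, 11 and 2. On chromosome 1, from 81441647 to 81443979, values were 36.2, 50.6 and 26.7 FPKM in control and 56.5, 71.1 and 61.2 in ketamine libraries (limma, 0.76 ± 0.21 SE, adjusted p = 0.684). On chromosome 11, from 10316377 to 10319472, they were 27.8, 33.9 and 21.7 in control and 35.8, 44.3 and 40.4 in ketamine libraries (limma, 0.53 ± 0.16 SE, adjusted p = 0.692). Its nearest named gene, Gm11996, 52256 bases away, was at 57.5, 73.1 and 42.8 FPKM in control and 79.4, 92.3 and 84.8 in ketamine libraries. The authors' deposited table called Gm11996 as well (FDR 0.0157), and limma did not (0.59 ± 0.18 SE, adjusted p = 0.692). On chromosome 2, from 147324872 to 147328836, values were 1.99, 1.89 and 1.78 in control and 2.44, 3.69 and 4.66 in ketamine libraries (limma, 0.64 ± 0.20 SE, adjusted p = 0.723). Each of the 3 unannotated loci was higher in 3 of 3 ketamine libraries than in any control library.

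A locus whose nearest named gene was Ppara, which encodes a nuclear receptor of lipid metabolism and lay 81674 bases away in the siGSK3b table, was called lower with siGSK3b and with ketamine in the authors' deposited table, and both calls rest on 1 control library. On chromosome 15, from 85495451 to 85526317, it was at 12.9, 18.4 and 208 FPKM in control and 14.6, 17.8 and 12.5 in siGSK3b libraries. Without control replicate 3, the library at 208 FPKM, the difference was -0.05 instead of -1.28 (limma, adjusted p = 0.928 with all libraries). In the ketamine table the locus was at 12.3, 18.4 and 203 in control and 18.9, 15.8 and 19.4 in ketamine libraries, and the difference turned from -0.98 to 0.24 without control replicate 3. L803mts replicate 1 was high as well, at 184 FPKM, with 17.8 and 26.8 in the other L803mts libraries and 16.2, 21.5 and 212 in control. Ppara itself was at 1.21, 3.71 and 1.86 FPKM in control and 0.692, 0.827 and 0.759 in siGSK3b libraries, without overlap. Its difference did not pass limma (-0.82 ± 0.28 SE, adjusted p = 0.848) or the authors' test (FDR 0.548). In the ketamine table Ppara was at 2.57, 5.95 and 3.75 in control and 2.44, 2.56 and 2.89 in ketamine libraries, with overlap.

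The authors' deposited table called 4 loci lower and 1 higher with siGSK3b. Besides the locus near Ppara, a pair of neighbours on chromosome 1 was lower. The row from 126383092 to 126693706 was at 13.6, 21.2 and 12.8 FPKM in control and 9.99, 8.07 and 9.69 in siGSK3b libraries (limma, -0.69 ± 0.19 SE, adjusted p = 0.77). The row from 126739397 to 126742992 was at 5.13, 6.04 and 4.33 in control and 4.0, 2.95 and 3.55 in siGSK3b libraries (limma, -0.45 ± 0.17 SE, adjusted p = 0.848). Both rows had all siGSK3b libraries below all controls, and the nearest named gene, Actr3, was 595825 bases from the first and 546539 bases from the second.

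The locus called lower on chromosome 7, from 77722729 to 77729733 and 187518 bases from Nr2f2, had different control values in different tables. In the siGSK3b table it was at 0.951, 31.5 and 30.2 FPKM in control and 1.77, 1.29 and 1.16 in siGSK3b libraries (limma, -2.39 ± 0.97 SE, adjusted p = 0.848). Without control replicate 1, the low control, the difference was -3.73 and passed limma (adjusted p = 0.000786). The same 3 control libraries were at 0.939, 0.751 and 1.12 FPKM in the L803mts table, where the overlapping locus runs from 77718016 to 77729087. In the ketamine table, with limits from 77722171 to 77734920, they were at 1.21, 1.15 and 1.13. The high values of control replicates 2 and 3 were thus present in a single table, and the part of the locus limits in this was not tested.

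The locus called higher with siGSK3b lies 1426 bases from Trpm3, a cation channel abundant in choroid plexus epithelium, on chromosome 19 from 23065000 to 23070699. It was at 18.2, 9.63 and 9.03 FPKM in control and 16.4, 22.5 and 18.0 in siGSK3b libraries. Control replicate 1 lay among the siGSK3b libraries, and the difference was 0.64 ± 0.25 SE (limma, adjusted p = 0.848). The order of the controls was that of the summed choroid plexus markers (4784, 365 and 127 FPKM), and the part of choroid plexus tissue in the result was not tested. Trpm3 was at 7.49, 6.71 and 6.45 FPKM in control and 6.39, 7.53 and 6.12 in siGSK3b libraries.

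With L803mts the authors' deposited table called 1 locus, 3521 bases from Slc29a4, which encodes a plasma membrane monoamine transporter. The locus, on chromosome 5 from 143201955 to 143203005, was listed at 0 in all control libraries and at 5.73, 1.36 and 7.46 FPKM in L803mts libraries. No overlapping unannotated intergenic locus was present in the other tables. It did not pass limma with all libraries (adjusted p = 0.742) and did without L803mts replicate 2, the lowest L803mts library (adjusted p = 0.0139). Slc29a4 was at 7.11, 4.55 and 4.36 FPKM in control and 6.09, 7.83 and 13.0 in L803mts libraries.

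**Figure D5:**
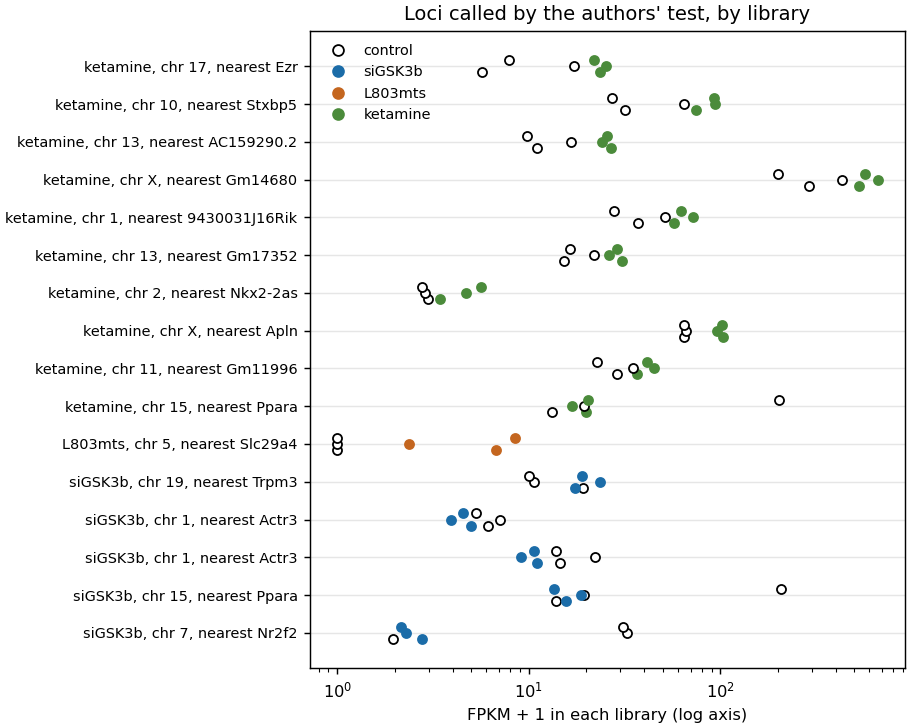
FPKM + 1 in each library (log axis) for the 16 calls of the authors' test among unannotated intergenic loci, with control libraries as open circles and treated libraries as filled circles; each line is named by table, chromosome and nearest named gene. The ketamine libraries lie above every control at the 9 loci called higher, and a single control library stands apart at the locus nearest Ppara.

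Among loci that did not pass any test, several of the largest non-overlapping differences were at low or unstable values. The region 7 rows whose values are given above were also among the largest rises and were not low. In the siGSK3b table a locus 46602 bases from Adcyap1r1, a neuropeptide receptor gene, on chromosome 6 from 55353676 to 55355709, was at 2.19, 4.93 and 2.07 FPKM in control and listed at 0 in all 3 siGSK3b libraries (limma, adjusted p = 0.331). With L803mts the same place was at 1.24, 4.51 and 1.24 in control and 4.19, 0.907 and 0.713 in L803mts libraries. A locus 8462 bases from Slitrk3, a synaptic adhesion gene, on chromosome 3 from 72870067 to 73131217, was at 7.37, 12.5 and 7.17 FPKM in control and 17.6, 69.1 and 31.8 in siGSK3b libraries (limma, 1.84 ± 0.44 SE, adjusted p = 0.735). That place was at 3.67, 8.74 and 71.5 FPKM in L803mts libraries against 7.86, 13.5 and 7.75 in control of the L803mts table, so a single library was high. Ketamine libraries were at 10.0, 13.8 and 15.2 FPKM there, all above their controls of 8.43, 7.60 and 9.95 (limma, 0.53, adjusted p = 0.739). In the ketamine table a locus within the interval of Sesn3, on chromosome 9 from 13933151 to 14133043, was listed at 0, 3649 and 0 FPKM in control and 5170, 10225 and 5094 in ketamine libraries. It did not pass limma with all libraries (adjusted p = 0.742) and did without control replicate 2, which leaves both controls at 0 (adjusted p = 4.91e-05). A locus 17025 bases from Laptm4b, on chromosome 15 from 34150822 to 34151060, was at 1.16, 0 and 1.06 FPKM in control and 5.21, 4.74 and 6.64 in ketamine libraries (limma, 1.98 ± 0.31 SE, adjusted p = 0.384).

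Of 335 loci with a single row in each table, 1 was higher and 2 were lower without overlap in all 3 comparisons, which share their controls. That is 0.299% and 0.597%, beside 0.266% and 0.292% of 11658 named loci with a single row in each table, too few for a statement on the class. Taken table by table, 16, 6 and 19 of the 335 were higher and 14, 27 and 25 lower without overlap with siGSK3b, L803mts and ketamine. Of all tested loci, 5.72%, 5.86% and 5.28% were higher and 4.84%, 6.67% and 6.19% lower without overlap. The locus higher in all 3 comparisons lies about 63 kilobases from Vldlr, a reelin receptor gene, on chromosome 19 from 27388666 to 27391462. In the siGSK3b table it was at 0.561, 0.128 and 0.0913 FPKM in control and 0.935, 1.83 and 1.26 in siGSK3b libraries. L803mts libraries were at 0.788, 1.16 and 0.495 FPKM, above controls of 0.360, 0.166 and 0.0585, and ketamine libraries at 1.30, 1.12 and 0.726, above controls of 0.472, 0.330 and 0.0795. The limma differences were 0.90, 0.59 and 0.66, with adjusted p of 0.735, 0.757 and 0.692. All values of this locus were near or below 2 FPKM.

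The lower ones were also weakly expressed. In region 5, from 5598116 to 5599077 on chromosome 16, control libraries were at 2.27, 2.14 and 1.28 FPKM in the siGSK3b table. The siGSK3b libraries were at 1.23, 1.07 and 1.02, L803mts libraries at 0.840, 0.876 and 0.6 and ketamine libraries at 1.18, 0.876 and 1.02 FPKM. The differences were -0.44, -0.71 and -0.50 (limma, adjusted p = 0.866, 0.757 and 0.791). On chromosome 1, from 14765650 to 14776906 in the siGSK3b and L803mts tables and 465841 bases from Eya1, control libraries were at 1.49, 1.39 and 0.997 FPKM and siGSK3b libraries at 0.849, 0.370 and 0.433. L803mts libraries were at 0.811, 0.703 and 0.708 and ketamine libraries at 0.903, 0.699 and 0.736 FPKM, with differences of -0.57, -0.40 and -0.36 (limma, adjusted p = 0.848, 0.757 and 0.820). The ketamine row has wider limits, from 14620619 to 14908865, and overlaps the interval of Trpa1.

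Some weak loci were present in control replicate 1 and listed at 0 in the other controls. On chromosome 14, from 76651150 to 76651983, the siGSK3b table listed 4.23, 0 and 0 FPKM in control and 2.42, 1.34 and 2.35 in siGSK3b libraries. L803mts libraries were at 1.41, 2.65 and 2.57 FPKM, and the ketamine libraries at 0.687, 3.56 and 0.139. On chromosome 9, from 52338112 to 52343808, the siGSK3b table listed 4.36, 0 and 0 in control and 1.35, 1.74 and 1.51 in siGSK3b libraries. L803mts libraries were at 1.10, 0.927 and 0 FPKM at that locus. A further locus high in control replicate 1 was near 0 in siGSK3b libraries but not in L803mts libraries. On chromosome 7, from 86645091 to 86922177, the siGSK3b table listed 10.3, 0.000418 and 0.00857 FPKM in control. The siGSK3b libraries were at 0.000132, 0.0085 and 0.000613 there. In the L803mts table the overlapping row, from 86645091 to 86700376, was at 11.1, 5.82e-08 and 7.14 FPKM in control. L803mts libraries were at 3.71, 3.17 and 8.15. Control replicate 3 thus differed between the tables, and the part of the locus limits in this was not tested. Control replicate 1 is also the control with the highest choroid plexus markers, and the part of that tissue at these loci was not tested. At the loci on chromosomes 14 and 9 the limma difference of siGSK3b from control did not pass (0.79 and 0.53, adjusted p = 0.932 and 0.949).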

How the data were processed

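The 12 libraries were compared within 3 deposited tables, each holding 1 treatment and the same 3 control libraries. The submitters' processing notes name TopHat2 2.0.9, Cufflinks, Cuffdiff and the builds GRCh37 and NCBIM37; the largest chromosome 7 coordinate, 152125614, lies past the last GRCm38 gene there (145324059), so the tables' coordinates are NCBIM37. Per the file headers, the authors deposited FPKM values per library and, for each locus, a p-value, its FDR (q-value) and a log2 fold change; groups were taken from the sample titles. Log2 fold changes were not used. FPKM keeps no depth, so no counting interval is given.

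Values were transformed to log2(FPKM + 1), a pseudocount of 1, and fitted in limma 3.58.1 under R 4.3.3 with the trend option over the loci the authors tested (p-value below 1), and adjusted by Benjamini-Hochberg over all of them; 26, 38 and 32 members were not tested. The fit was tested on simulated data. An exact permutation test of 3 against 3 libraries cannot go below p = 0.1 and was not used. Named loci are those called by either test, the 4 of highest level, the 4 largest non-overlapping differences in each direction at a mean FPKM of at least 1, those alike in all 3 tables, those highest in control replicate 1 and those within 5000 bases of a cell type marker; a selection is printed, and some are not reported here. The members, lists and rules were chosen with earlier results of these data known, and regions were drawn after positions were seen. Sequences of the members were not used here.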

Additional observations from a re-analysis of the deposited data

How the results depend on the processing

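The alternatives were a pseudocount of 0.1, a filter at a mean FPKM of 1, all loci above 0, libraries scaled to equal medians, no intensity trend, each replicate left out and the replicate number as a block. The count of members passing limma was 0 under each of these except when a library was left out: it ranged from 0 to 2 for siGSK3b (2 without control replicate 1), from 0 to 1 for L803mts (1 without L803mts replicate 2) and from 0 to 4 for ketamine (4 without control replicate 2). The median difference of the members ranged from 0.01 to 0.10, from -0.15 to -0.02 and from 0.01 to 0.08 with single libraries left out. Without the 8 regions it was 0.03, -0.08 and 0.05, and with a single value per distinct interval 0.02, -0.09 and 0.03; both were chosen after seeing the data. At an FDR of at most 0.2 the authors' deposited table called 6, 1 and 20 members for siGSK3b, L803mts and ketamine (0.584%, 0.0831% and 1.71%, beside 0.887%, 1.38% and 0.878% of all loci).

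Of 560 recomputed values of 47 named differences, 552 kept their direction and their side of the limma threshold, 7 came to pass it when a library was left out, and 1 was reversed: the locus near Ppara in the ketamine table, whose difference ranged from -1.73 without control replicate 1 to 0.24 without control replicate 3. The share of members near a named gene was 26.4%, 30.9% and 27.9% within 1000 bases and 38.7%, 43.0% and 41.2% within 10000 bases. Same-numbered libraries did not pair in the siGSK3b table, where the correlation of their deviations from the group means was 0.008, -0.053 and -0.16. The correlations were weak but all positive for L803mts (0.015, 0.058 and 0.186) and ketamine (0.105, 0.039 and 0.139). Differently numbered libraries reached 0.134 for siGSK3b, 0.181 for L803mts and 0.104 for ketamine. With the replicate block, 0 members passed limma in each comparison, as without it; at an unadjusted p under 0.05, 53 were higher and 17 lower for siGSK3b (5.16% and 1.66%, beside 2.48% and 2.45% of all loci), 21 and 65 for L803mts (1.74% and 5.4%, beside 4.83% and 3.41%) and 68 and 29 for ketamine (5.82% and 2.48%, beside 3.47% and 3.53%). The length of the assembled transcripts, and so the number of fragments behind an FPKM value, is not known here, which limits what very short or very high loci can show.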
